A study of Mus musculus with 12 samples.

Results

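S100a4, S100a6, S100a10, S100a11, S100a13 and Lgals1 are 5 genes of the S100 family and a galectin gene, taken here as 1 group of memory-type T cell genes, and their average expression was followed in CD4 and CD8a cells of the spleen in 12 mice. The genes were taken by name from the deposited averages, in which 3684 genes are listed in all. All 6 are listed for CD4 cells and 5 for CD8a cells. S100a4 is not in a CD8a table and its level there was not analysed here. The 6 genes were chosen on their stress differences in these same mice, so their stress differences are given below as a description. Counts of these differences past a threshold are not independent of that choice and are not a test of the genes.

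The mice were C57Bl6/J (wild type, WT in the figures) or S100a9-/- C57Bl6/J (labelled knockout, KO in the figures), either left without stress or put through repeated social defeat. Social defeat lasted 10 days and was followed by 1 day of behavioural tests, and splenocytes were collected on day 12 from 3 mice in each of 4 groups. The deposited value is the average expression of a gene over the CD4 or the CD8a cells of a mouse, measured by droplet sequencing of transcript 3' ends. The comparisons ask how the genes differed with stress, with the genotype label and between the CD4 and CD8a cells of a mouse. The labels name no deleted part of S100a9, no age and no number of cells per mouse.

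S100 proteins are small calcium sensors with EF-hand motifs that change shape on binding calcium and then bind target proteins, many of them annexins or parts of the cytoskeleton. Galectin-1, encoded by Lgals1, is a lectin that binds galactose-containing sugar chains on surface glycoproteins such as CD45, CD43 and CD7 and is known for effects on T cell survival and adhesion. Transcripts of S100a4, S100a6, S100a10, S100a11 and Lgals1 are commonly higher in effector and memory T cells than in naive T cells. S100a13 was placed with them by name and has no such background here. Calprotectin, the protein pair of S100a8 and S100a9, belongs to the same S100 family but is abundant in neutrophils and monocytes.

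The 5 S100 genes lie on mouse chromosome 3, where the S100 genes form a cluster that also holds S100a9 (90692632 to 90695721, minus strand, mm10 with GENCODE M21). S100a6 (90612882 to 90624181), S100a4 (90603771 to 90606045) and S100a13 (90514435 to 90524581), all on the plus strand, lie 68.5, 86.6 and 168.1 kb from S100a9. S100a11 (93520488 to 93526287) and S100a10 (93555080 to 93564643), also on the plus strand, lie 2824.8 and 2859.4 kb away. Lgals1 lies on chromosome 15 (78926725 to 78930465, plus strand). All 6 genes are annotated as protein-coding.

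RefSeq (GRCm38.p6) upstream sequence was matched for 4 of the 6 genes. All matched windows are shown, and the reference used had none for S100a10 and Lgals1. Each line gives the 250 bases before the RefSeq start, 5′ to 3′, and capitals mark matches to the 5 motifs that were searched on both strands.
S100a4 (chr3:90603520-90603769, plus strand): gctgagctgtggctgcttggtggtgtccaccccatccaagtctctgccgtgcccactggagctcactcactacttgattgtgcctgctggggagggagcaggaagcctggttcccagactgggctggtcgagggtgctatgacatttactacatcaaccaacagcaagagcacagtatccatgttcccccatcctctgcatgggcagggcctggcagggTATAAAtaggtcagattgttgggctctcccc
S100a6 (chr3:90612644-90612893, plus strand): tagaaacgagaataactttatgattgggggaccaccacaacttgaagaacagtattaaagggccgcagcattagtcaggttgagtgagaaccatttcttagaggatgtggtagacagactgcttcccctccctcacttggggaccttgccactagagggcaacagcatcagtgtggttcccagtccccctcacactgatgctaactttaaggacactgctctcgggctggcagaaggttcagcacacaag
S100a11 (chr3:93520246-93520495, plus strand): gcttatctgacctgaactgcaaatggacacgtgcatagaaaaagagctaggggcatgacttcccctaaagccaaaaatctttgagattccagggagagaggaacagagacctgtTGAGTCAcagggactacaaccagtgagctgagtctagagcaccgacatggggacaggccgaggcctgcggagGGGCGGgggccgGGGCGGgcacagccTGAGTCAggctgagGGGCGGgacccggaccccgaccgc
S100a13 (chr3:90514185-90514434, plus strand): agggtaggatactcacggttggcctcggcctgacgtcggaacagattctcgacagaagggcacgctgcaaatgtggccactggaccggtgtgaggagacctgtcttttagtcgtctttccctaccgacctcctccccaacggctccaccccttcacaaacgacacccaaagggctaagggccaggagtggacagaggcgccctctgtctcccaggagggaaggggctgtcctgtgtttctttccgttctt
The AP-1 type motif TGANTCA, bound by the AP-1 family of activation-induced factors, occurs in 6.75% of 32851 upstream windows of the same length. The GC box GGGCGG occurs in 32.7% of these windows, and the TATA type motif TATAAA in 12.4%. The STAT type motif TTCNNNGAA occurs in 7.02%, and the ETS type motif CCGGAAG in 6.91%. S100a4 has 1 match to the TATA type motif, and S100a11 has 2 to the AP-1 type motif and 3 to the GC box, none overlapping. S100a6 and S100a13 have 0 matches in these windows. A match describes the letters of a window and was not tied to any value below.

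The listed genes of a mouse summed to 7367 to 7562 in CD4 cells of unstressed mice and 8120 to 8225 in those of stressed mice, and to 7419 to 7615 and 8102 to 8270 in CD8a cells. The number of cells and reads behind each average is unknown. S100a9 itself was near 0 in all averages, and in CD4 cells it was 0.00449, 0.0167 and 0.0119 in the wild-type controls and 0.0493, 0.0418 and 0.0437 in the controls labelled knockout, which goes against the genotype label. In stressed mice the order went with the label, at 0.111, 0.0595 and 0.106 in wild type and 0.0294, 0.0230 and 0.0228 in mice labelled knockout. Reads of transcript ends outside a deleted part check nothing, and the deleted part is not given. The label was thus not checked, and the mice are called labelled knockout throughout. Cd4 was 1.66 to 3.01 in the CD4 averages, where Cd8b1 was 0.291 to 0.883, and Cd8b1 was 8.01 to 11.6 in the CD8a averages, so the cell type labels matched their defining markers.

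In CD4 cells all 6 genes had their lowest group mean in the wild-type controls, and all but S100a13 were far higher in 2 of the 3 unstressed mice labelled knockout. S100a4 reached its highest averages in those mice, with a group mean 5.62 times that of the wild-type controls. The third unstressed mouse labelled knockout lay within the wild-type control range for 4 of the 6 genes. S100a13 had another pattern, higher in both stressed groups than in both control groups.

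S100a4 encodes a protein that binds nonmuscle myosin and is linked to cell movement. Its CD4 averages were 0.502, 0.822 and 0.384 in wild-type controls 1 to 3, and 4.25, 4.31 and 1.04 in controls 1 to 3 labelled knockout. They were 3.63, 1.31 and 1.84 in the stressed wild-type mice and 2.13, 2.61 and 3.40 in the stressed mice labelled knockout. All 3 wild-type controls lay below every other mouse, and the other 3 groups overlapped one another. The means followed the order wild-type control, wild-type stressed, labelled knockout stressed, labelled knockout control, and of these neighbours the first pair alone did not overlap.

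S100a6 encodes calcyclin, which binds the calcyclin-binding protein Cacybp. Its CD4 averages were 0.779, 1.53 and 0.732 in wild-type controls and 5.01, 4.22 and 1.47 in the controls labelled knockout. They were 4.46, 1.76 and 2.93 in stressed wild-type mice and 2.67, 3.03 and 4.44 in stressed mice labelled knockout. The order of the means was that of S100a4. Control 3 labelled knockout fell below wild-type control 2, so these control groups overlapped, whereas every stressed mouse was above every wild-type control.

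S100a10 encodes the partner of annexin A2 in a complex at the cell membrane. Its CD4 averages were 4.73, 5.04 and 4.29 in wild-type controls, 9.66, 8.14 and 4.93 in the controls labelled knockout, 8.33, 5.81 and 8.26 in stressed wild-type mice, and 6.75, 7.15 and 9.91 in stressed mice labelled knockout. S100a11 encodes a binding partner of annexin A1. Its CD4 averages were 1.54, 1.59 and 1.32 in wild-type controls, 3.76, 3.13 and 1.89 in the controls labelled knockout, 3.34, 1.98 and 2.88 in stressed wild-type mice, and 2.26, 3.06 and 3.52 in stressed mice labelled knockout. For both genes the wild-type control mean was lowest and lay apart from its neighbour, stressed wild type, while the other neighbours overlapped. Control 3 labelled knockout was inside the wild-type control range for S100a10 and above it for S100a11.

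S100a13 encodes a protein involved in the release of growth factors that lack a signal peptide. Its CD4 averages were 0.948, 1.23 and 1.18 in wild-type controls, 1.46, 1.39 and 0.954 in the controls labelled knockout, 2.19, 1.59 and 1.99 in stressed wild-type mice, and 1.68, 1.76 and 1.84 in stressed mice labelled knockout. All 6 stressed mice were above all 6 controls, and within each condition the genotype labels overlapped. Its means followed the order wild-type control, labelled knockout control, labelled knockout stressed, wild-type stressed.

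Lgals1 averages in CD4 cells were 1.40, 1.69 and 1.36 in wild-type controls and 4.74, 3.88 and 1.57 in the controls labelled knockout. They were 4.03, 2.24 and 4.09 in stressed wild-type mice and 3.46, 2.86 and 3.95 in stressed mice labelled knockout. Control 3 labelled knockout again lay within the wild-type control range, and every stressed mouse was above it. The means followed the order of S100a13, and all neighbours overlapped. An average over cells cannot tell more cells with a transcript from more transcript per cell, for this or any other gene here.

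**Figure D1:**
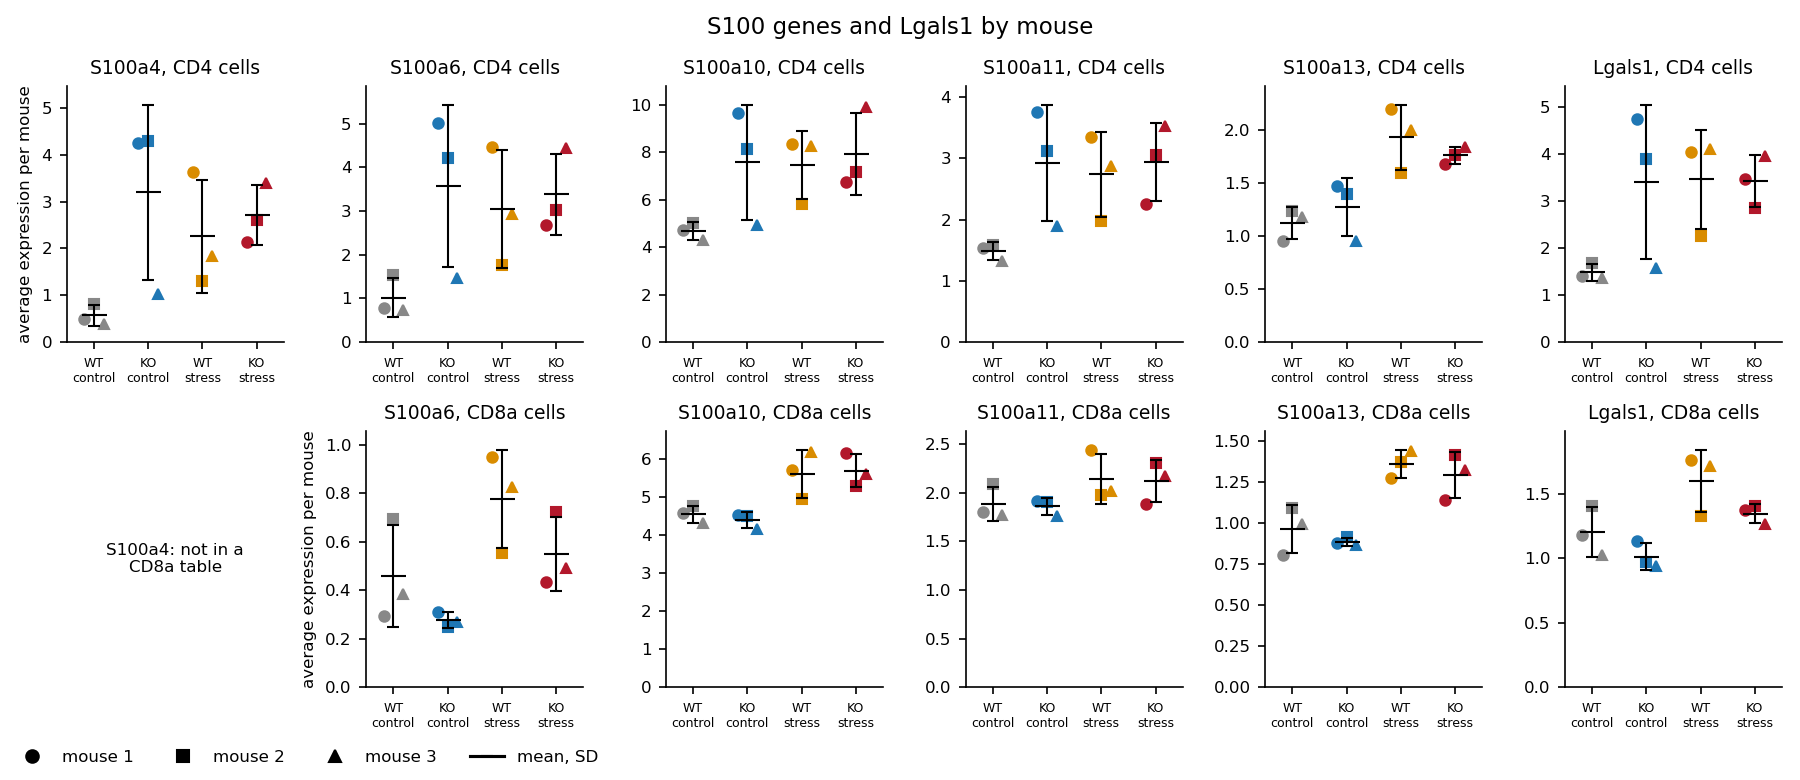
Average expression of each gene (linear scale, as deposited) in CD4 cells (top) and CD8a cells (bottom), with 1 point per mouse and bars for mean and SD over the 3 mice of a group. Mice of different groups that share a number are different animals. In CD4 cells, controls 1 and 2 labelled knockout stand above the wild-type controls for all 6 genes, and control 3 stands near them.

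Relative to the mean of the wild-type controls on the log2(value + 0.1) scale, the median over the 6 genes in CD4 cells was 1.45 and 1.18 in controls 1 and 2 labelled knockout and 0.21 in control 3. The stressed wild-type mice had medians of 1.26, 0.53 and 1.16, and the stressed mice labelled knockout had 0.88, 0.95 and 1.28. In the CD8a cells of the same controls labelled knockout the medians over 5 genes were -0.07, -0.06 and -0.13. The mice that were high in CD4 cells were thus not high in CD8a cells.

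**Figure D2:**
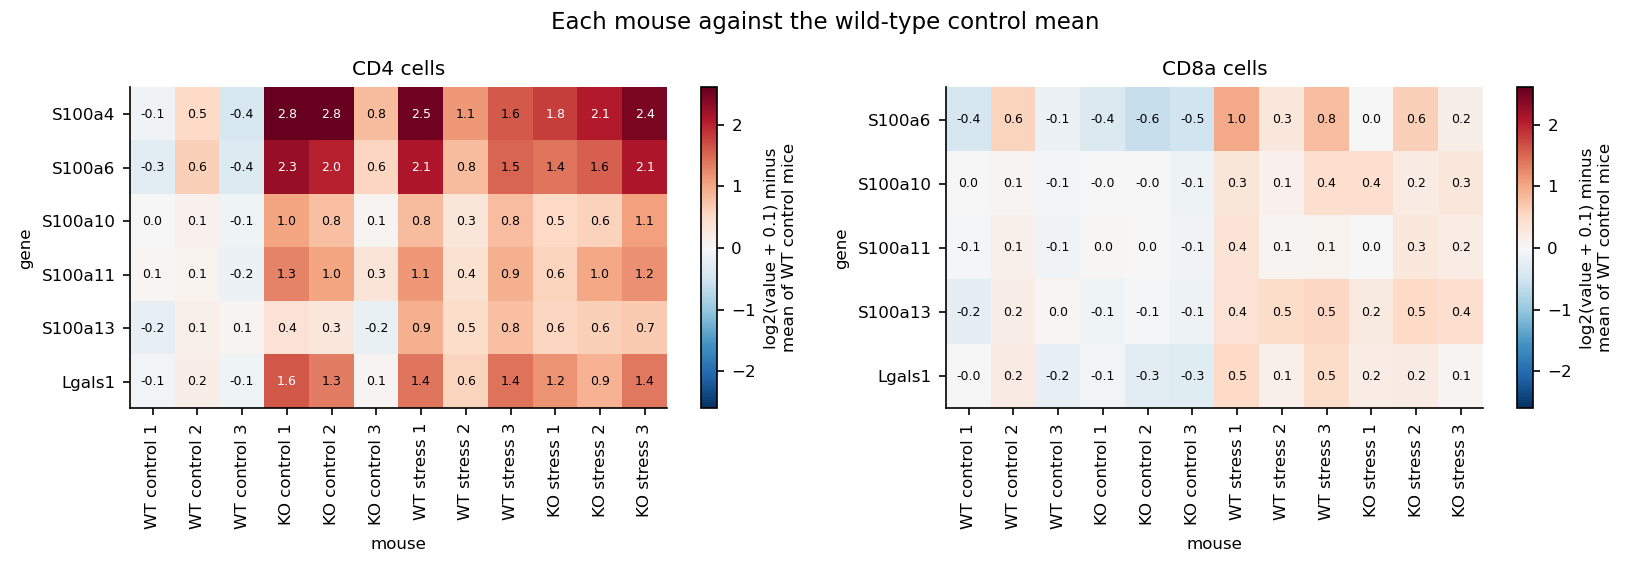
Difference of each mouse from the mean of the wild-type controls (log2 of value + 0.1) for each gene, in CD4 cells (left) and CD8a cells (right), with red for higher and blue for lower. Columns for controls 1 and 2 labelled knockout are red in CD4 cells, with medians of 1.45 and 1.18, and near white or blue in CD8a cells, with medians of -0.07 and -0.06.

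Between the unstressed groups, S100a4, S100a6 and S100a11 were higher in CD4 cells of the mice labelled knockout, and the other 3 genes did not pass the test. The differences were tested on the log2(value + 0.1) scale with limma, in a fit of all 2999 genes listed for CD4 cells and all 12 mice, and adjusted by the Benjamini-Hochberg method over those genes. The threshold for a call was an adjusted p of 0.05, and 2.23% of the 2999 genes were called higher. Among the 6 genes 3 were called higher. Both this comparison and the wild-type stress comparison, on which the genes were chosen, are taken against the same 3 wild-type controls. S100a4, S100a6, S100a10 and S100a11 are also among the genes the authors selected for this same comparison, and S100a13 and Lgals1 are not. The count is thus independent of neither choice.

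S100a4 was higher by 2.11 ± 0.43 (SE) with an adjusted p of 0.0259 (limma, Benjamini-Hochberg). S100a6 was higher by 1.62 ± 0.39 (limma, adjusted p = 0.0373) and S100a11 by 0.88 ± 0.22 (limma, adjusted p = 0.0404). All 3 mice labelled knockout were above all 3 wild-type controls for S100a4 and S100a11, but not for S100a6. Lgals1 differed by 1.01 ± 0.30 (limma, adjusted p = 0.0760), S100a10 by 0.63 ± 0.20 (limma, adjusted p = 0.0952) and S100a13 by 0.15 ± 0.14 (limma, adjusted p = 0.594). The median difference was 0.95 over the 6 genes and 0.07 over all 2999. The labels give no litter, cage or day, and the p-values measure only the spread between these mice.

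These calls rest on few mice. Without control 3 labelled knockout 5 of the 6 genes were called, all but S100a13, with S100a4 higher by 2.76 and Lgals1 by 1.48. Leaving out control 1 or 2 labelled knockout, or any 1 of the 3 wild-type controls, left 0 called, and leaving out stressed mouse 2 labelled knockout left 1. The share of all genes called in these fits was not recorded, so these counts have no background to be set against.

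After stress the genotype groups overlapped for all 6 genes in CD4 cells. The differences, labelled knockout minus wild type, were 0.35 ± 0.43 for S100a4, 0.20 ± 0.39 for S100a6, 0.08 ± 0.20 for S100a10, 0.11 ± 0.22 for S100a11, -0.11 ± 0.14 for S100a13 and 0.02 ± 0.30 for Lgals1. limma called 0 of the 6, and 0 had an unadjusted p under 0.05. Over all genes, 3 of 2999, or 0.1%, were called in either direction.

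Stress differences in CD4 cells, which chose the genes, are given as a description. In wild-type mice the stressed minus control difference was 1.75 ± 0.43 for S100a4, 1.48 ± 0.39 for S100a6, 0.65 ± 0.20 for S100a10, 0.81 ± 0.22 for S100a11, 0.73 ± 0.14 for S100a13 and 1.13 ± 0.30 for Lgals1. All 6 were past the threshold as higher, where 22.9% of the 2999 genes were, but the choice of the genes on this difference favoured that count. In mice labelled knockout the same difference was -0.01 ± 0.43 for S100a4, 0.06 ± 0.39 for S100a6, 0.10 ± 0.20 for S100a10, 0.04 ± 0.22 for S100a11, 0.46 ± 0.14 for S100a13 and 0.14 ± 0.30 for Lgals1. Of these only S100a13 was past the threshold, where 12.7% of the 2999 genes were higher. The range of the stressed mice lay above that of the controls for all 6 genes in wild type and for S100a13 alone in mice labelled knockout. The share of all 2999 genes with ranges so apart was not counted, so these ranges make no comparison with other genes. The stress difference in mice labelled knockout minus that in wild type was -1.76 ± 0.61 for S100a4 and -0.27 ± 0.20 for S100a13, with the other 4 genes between these. This difference passed the limma test for 0 of the 6 genes and 0 of all 2999 (0%), with 4 of the 6 at an unadjusted p under 0.05, so the stress differences were not shown to differ between the genotype labels. Without control 3 labelled knockout it was -2.41 for S100a4 and -1.46 for Lgals1, both past the threshold. The share of all genes past the threshold in that fit was not recorded, so these calls have no background. The comparison also holds the wild-type stress difference on which the genes were chosen. Without control 3 labelled knockout the stress difference in mice labelled knockout was -0.66 for S100a4, -0.47 for S100a6, -0.33 for Lgals1, -0.23 for S100a11, -0.18 for S100a10 and 0.28 for S100a13, none of them past the threshold. S100a13 also missed it without stressed mouse 3 labelled knockout (0.43). S100a10 missed it in wild type without control 3 (0.59), stressed mouse 1 (0.56) or stressed mouse 3 (0.56).

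In CD8a cells, 4 of the 5 listed genes were past the threshold as higher after stress in each genotype. Over all 2851 listed genes 18.8% were in wild type and 13.2% in mice labelled knockout. The count is a description, as stress differences chose the genes and only the authors' stress comparisons list them for CD8a cells. No difference between the genotype labels passed the test. S100a6 was 0.294, 0.694 and 0.382 in wild-type controls, 0.311, 0.249 and 0.269 in the controls labelled knockout, 0.947, 0.554 and 0.825 in stressed wild-type mice, and 0.435, 0.721 and 0.492 in stressed mice labelled knockout. Wild-type control 2 overlapped the stressed wild-type mice, whereas the stressed mice labelled knockout lay above all 3 of their controls. The 3 controls labelled knockout lay close together, with a coefficient of variation of 11.4% against 52.2% in their CD4 cells.

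S100a10 in CD8a cells was 4.57, 4.75 and 4.31 in wild-type controls, 4.53, 4.49 and 4.15 in the controls labelled knockout, 5.71, 4.93 and 6.16 in stressed wild-type mice, and 6.16, 5.28 and 5.61 in stressed mice labelled knockout. S100a13 was 0.802, 1.09 and 0.990, then 0.876, 0.913 and 0.864, then 1.27, 1.37 and 1.44, and then 1.14, 1.42 and 1.32 in the same order of groups. For both genes all 6 stressed mice were above all 6 controls.

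S100a11 in CD8a cells was 1.80, 2.09 and 1.77 in wild-type controls, 1.92, 1.91 and 1.76 in the controls labelled knockout, 2.44, 1.98 and 2.01 in stressed wild-type mice, and 1.89, 2.31 and 2.17 in stressed mice labelled knockout. Its groups overlapped in every comparison. Lgals1 was 1.18, 1.41 and 1.03 in wild-type controls, 1.13, 0.969 and 0.941 in the controls labelled knockout, 1.76, 1.33 and 1.72 in stressed wild-type mice, and 1.37, 1.41 and 1.26 in stressed mice labelled knockout. Its stressed and control ranges lay apart in mice labelled knockout and overlapped in wild type. For S100a6, S100a11, S100a13 and Lgals1 the means followed 1 order, from labelled knockout control through wild-type control and labelled knockout stressed to wild-type stressed, and S100a10 differed in having its labelled knockout stressed mean highest. Neighbours in these orders overlapped, except wild-type control and the next stressed group for S100a10 and S100a13.

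The CD8a stress differences were 0.69 ± 0.21 for S100a6, 0.29 ± 0.08 for S100a10, 0.17 ± 0.09 for S100a11, 0.47 ± 0.10 for S100a13 and 0.38 ± 0.12 for Lgals1 in wild type. They were 0.76 ± 0.21, 0.36 ± 0.08, 0.18 ± 0.09, 0.50 ± 0.10 and 0.38 ± 0.12 for the same genes in mice labelled knockout. In each genotype 4 of the 5 were past the threshold as higher, all but S100a11, where 18.8% of the 2851 listed genes were in wild type and 13.2% in mice labelled knockout. Between the genotype labels the CD8a stress differences differed for 0 of the 5 genes and 0 of all 2851 (0%) by limma, with 0 of the 5 at an unadjusted p under 0.05. In wild type, S100a6 missed the threshold without control 1 (0.47) or stressed mouse 1 (0.55), and Lgals1 without control 3 (0.28). In mice labelled knockout S100a11 passed it without stressed mouse 1 (0.25).

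Genotype differences in the CD8a cells of unstressed mice were -0.50 ± 0.21 for S100a6 (limma, adjusted p = 0.344) and -0.22 ± 0.12 for Lgals1 (limma, adjusted p = 0.475), and between -0.10 and -0.02 for the other 3 genes. limma called 0 of the 5, with 1 at an unadjusted p under 0.05, where 0.702% of the 2851 genes were called in either direction. After stress the differences were -0.43 ± 0.21 for S100a6 and -0.22 ± 0.12 for Lgals1 and between -0.07 and 0.02 for the others. Again limma called 0 of the 5, with 0 at an unadjusted p under 0.05, where 0.631% of genes were called.

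**Figure D3:**
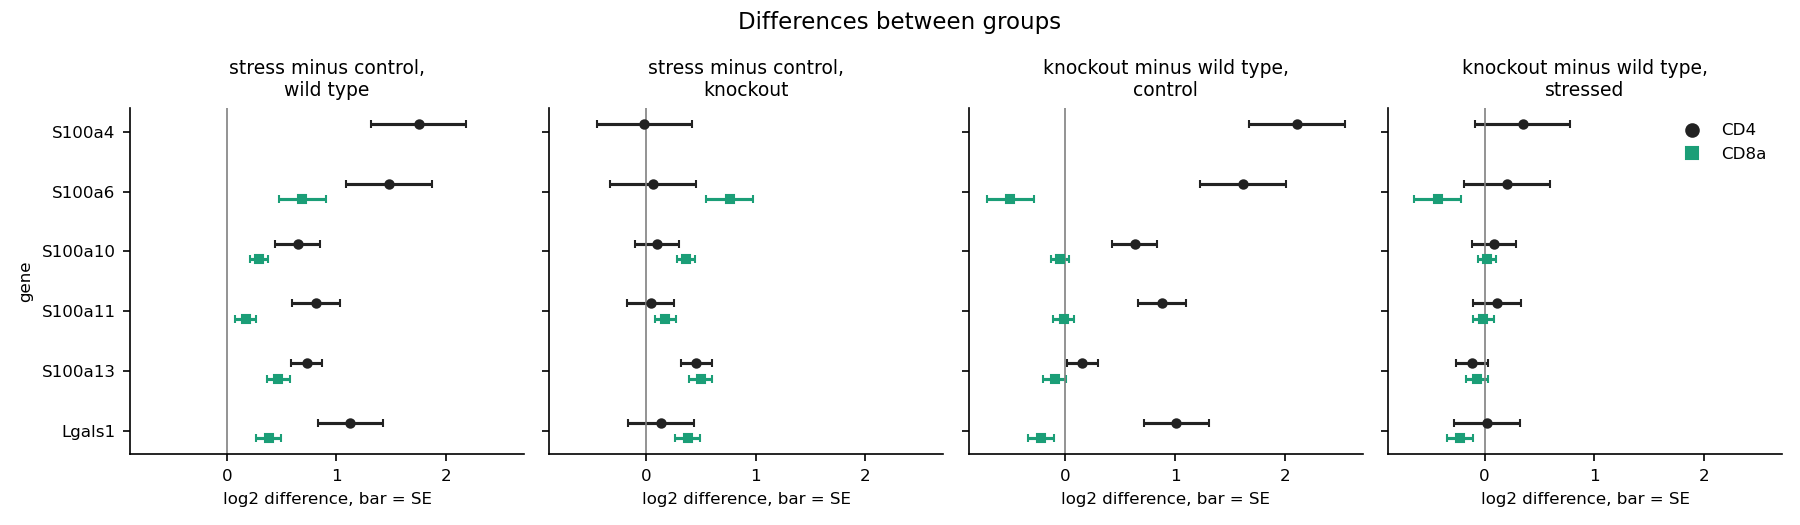
Differences between groups on the log2(value + 0.1) scale for each gene, with circles for CD4 cells, squares for CD8a cells and bars for the standard error. In the third panel the CD4 values for S100a6 and S100a11 (1.62 and 0.88) lie well to the right of their CD8a values, and S100a4 (2.11) has a CD4 value only. In the second panel the CD4 values lie near 0 except for S100a13 (0.46).

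Within a mouse, all 5 genes listed for both cell types were lower in CD8a than in CD4 cells of the mice labelled knockout, with or without stress. The CD8a minus CD4 difference was tested against 0 with limma over the 2166 genes listed for both cell types. The CD4 values of the wild-type mice helped to choose the genes. Each of the 5 was also selected by the authors for CD4 cells in a comparison that holds mice labelled knockout. The counts of all 4 groups are thus not independent of these choices and are given as a description. In wild-type controls S100a6 was past the threshold as lower (-0.995 ± 0.275), 1 of 5 genes, where 10.1% of the 2166 genes were called lower. S100a10, S100a13 and Lgals1 differed by -0.04 ± 0.14, -0.20 ± 0.11 and -0.28 ± 0.20, and S100a11 by 0.33 ± 0.14. S100a6 missed the threshold without any 1 of the 3 wild-type controls.

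In controls labelled knockout, also a description, all 5 genes were past the threshold as lower in CD8a cells, where 14.9% of genes were. S100a6 differed by -3.12 ± 0.27 and Lgals1 by -1.52 ± 0.20, with S100a10 at -0.72 ± 0.14, S100a11 at -0.57 ± 0.14 and S100a13 at -0.46 ± 0.11. Without control 1 labelled knockout 2 of the 5 were called, and without control 2 it was 3.

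In stressed wild-type mice, again a description, 3 of the 5 were past the threshold as lower in CD8a cells, where 16.4% of genes were. These were S100a6 (-1.78 ± 0.27), Lgals1 (-1.02 ± 0.20) and S100a13 (-0.46 ± 0.11), while S100a10 (-0.40 ± 0.14) and S100a11 (-0.31 ± 0.14) did not pass. In stressed mice labelled knockout, likewise a description, all 5 were past it as lower, where 17.4% of genes were. S100a6 was at -2.41 ± 0.27, Lgals1 at -1.27 ± 0.20 and the other 3 between -0.46 and -0.42. Without stressed mouse 3 labelled knockout 2 of the 5 were called, and without stressed mouse 2 it was 3.

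Whether the genotype difference of unstressed mice itself differed between cell types was added after the data were seen. CD8a minus CD4, it was -2.12 ± 0.39 for S100a6, -1.24 ± 0.29 for Lgals1, -0.90 ± 0.20 for S100a11, -0.68 ± 0.20 for S100a10 and -0.25 ± 0.15 for S100a13. limma called 0 of the 5 genes and 0 of all 2166, with the smallest adjusted p of the 5 at 0.294 for S100a6, although 4 of the 5 had an unadjusted p under 0.05. Without control 3 labelled knockout 3 were called, S100a6 (-2.64), Lgals1 (-1.66) and S100a11 (-1.14), and the share of all genes called in that fit was not recorded. The change of the CD8a minus CD4 difference with stress, a description only, was -0.79 ± 0.39 for S100a6 and -0.74 ± 0.29 for Lgals1 in wild type, and 0.70 ± 0.39 and 0.24 ± 0.29 in mice labelled knockout.

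The 6 genes also varied together among mice of the same group in CD4 cells. Deviations from the group mean on the log2 scale were correlated over 12 mice, and the 15 pairs of genes had a Pearson r from 0.82 to 0.97 with a median of 0.90. S100a4 and S100a6 were the closest pair. Leaving out the controls labelled knockout, in which the spread was widest, gave 0.63 to 0.96 with a median of 0.81 over 9 mice. In CD8a cells the 10 pairs ran from -0.15 to 0.79 with a median of 0.50. The genes of a pair were read from the same library of each mouse and share its depth and cell makeup, and these r are a description. Pairs of other genes were not summarised, so the r have no background. Genes outside the group reached like values, such as Mrps21 with S100a6 (0.97), so such r are not particular to the members.

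**Figure D4:**
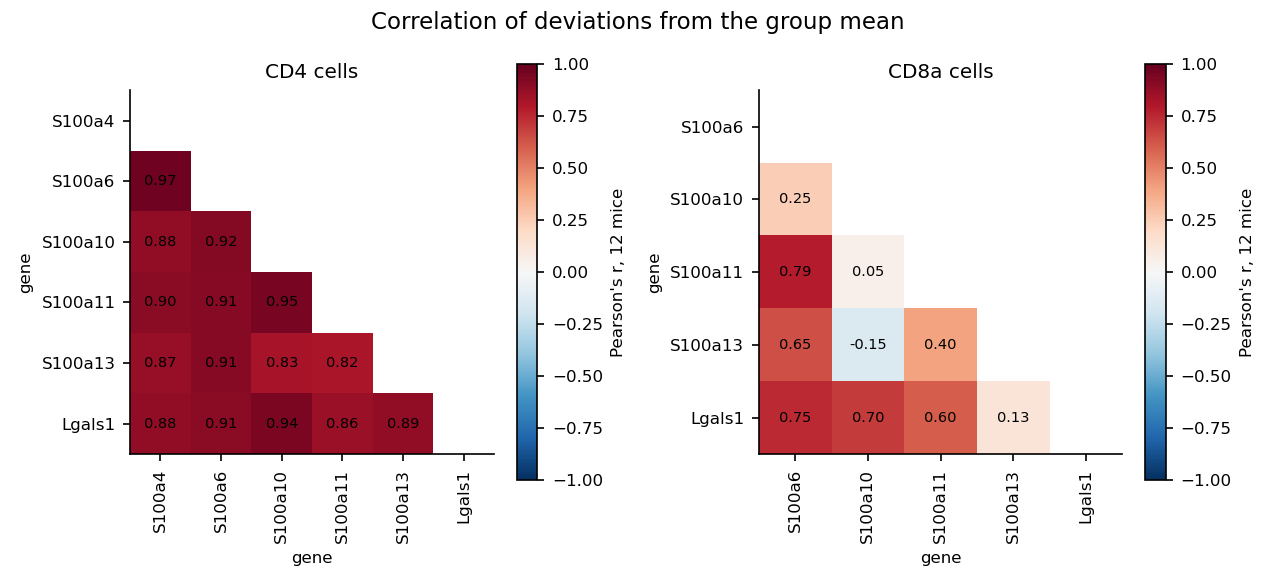
Pearson r of the deviations of 12 mice from their group means, for each pair of genes, in CD4 cells (left) and CD8a cells (right). All 15 pairs in CD4 cells lie between 0.82 and 0.97, and the 10 pairs in CD8a cells run from -0.15 to 0.79.

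Of the 1499 CD4 genes with a mean at or above the median gene, those most like each member by this r were partly members themselves. Maf, which encodes a transcription factor of helper T cells, led for S100a11 (r = 0.98) and S100a10 (0.96) and was also among the 5 closest to S100a4 and Lgals1. Mrps21, of the mitochondrial ribosome, followed for S100a6 (0.97) and S100a4 (0.95), and Crip1, a LIM-domain protein gene, was at 0.94 for both. Icos, a costimulatory receptor, was at 0.93 for S100a6, and Hmgb2, a chromatin protein gene, at 0.94 for Lgals1. S100a13 had other neighbours, led by Sem1 (0.94), Ubl5 (0.93) and Ndufa1 (0.92), of which Sem1 was also near Lgals1 (0.93). In CD8a cells the closest genes were Higd1a for S100a6 (0.79), Atp6v1d for S100a10 (0.88), Ndufa13 for S100a11 (0.90), Prkcq for S100a13 (0.85) and Nedd8 for Lgals1 (0.92).

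Other memory and effector T cell genes, 37 of them listed for CD4 cells, were compared with the members through a list drawn up with earlier results of these data known. In unstressed mice labelled knockout 5 of the 37 were higher and 0 lower than in wild type, with a list median of 0.60 against 0.07 over all genes, of which 2.23% were called higher and 1% lower. They were Maf (1.12 ± 0.28), the annexin gene Anxa2 (0.94 ± 0.21), the galectin gene Lgals3 (1.79 ± 0.40), the chemokine receptor Ccr6 (1.12 ± 0.19) and the cytokine receptor chain Il2rb (0.60 ± 0.15), named after their values were seen. Maf averages were 0.938, 0.927 and 0.792 in wild-type controls and 3.06, 2.43 and 1.13 in the controls labelled knockout, again high in controls 1 and 2. The summed level of the 37 genes was 34.1, 36.1 and 29.6 in wild-type controls and 59.2, 48.0 and 40.7 in the controls labelled knockout.

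With stress in wild type, 15 of the 37 genes were past the threshold as higher and 2 as lower, where 22.9% of all CD4 genes were higher and 27.7% lower. In mice labelled knockout 3 were higher and 6 lower, where 12.7% and 29% of all genes were. The difference between these stress differences passed the test for 0 of the 37 genes by limma. Ccl5, a chemokine, was the most abundant of the list and differed by 2.56 ± 0.43 and 1.84 ± 0.43, and Crip1 by 0.43 ± 0.14 and 0.24 ± 0.14. Among naive T cell genes, 8 of 11 were lower and 1 higher with stress in each genotype, above the 27.7% and 29% of all genes called lower, and without stress 1 of 11, Dapl1 (-0.48 ± 0.12), was lower in mice labelled knockout. Examples were Lef1 (-0.62 ± 0.10 in wild type, -0.48 ± 0.10 in mice labelled knockout) and Satb1 (-1.03 ± 0.08 and -0.89 ± 0.08). In CD8a cells 5 of 17 memory and effector genes were higher and 2 lower with stress in each genotype. All CD8a genes were called higher in 18.8% and 13.2% and lower in 35.5% and 34.4%, in wild type and in mice labelled knockout. Of 13 naive genes 10 were lower in each genotype.

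Binding partners of the members were compared through a further list. Of 10 annexin, myosin and related genes in CD4 cells, 1 was higher in unstressed mice labelled knockout, Anxa2, whose product pairs with that of S100a10. Anxa2 was 0.1001, 0.124 and 0.0519 in wild-type controls and 0.296, 0.285 and 0.216 in the controls labelled knockout, with no overlap. With stress in wild type 5 of the 10 were higher and 1 lower, including the myosin light chains Myl6 (0.34 ± 0.07) and Myl12b (0.57 ± 0.09) as higher and Myh9, the nonmuscle myosin heavy chain that S100a4 binds, as lower (-0.83 ± 0.09). Of 6 galectin-1 counter-receptor genes 3 were lower with stress in each genotype, among them Ptprc, which encodes CD45 (-0.72 ± 0.07 in both). None of the 6 differed between the unstressed genotypes by limma. Over all CD4 genes, 2.23% were called higher in unstressed mice labelled knockout. With stress 22.9% were called higher and 27.7% lower in wild type, and 29% lower in mice labelled knockout. The calprotectin gene S100a8 was 0.00732, 0.0111 and 0.0170 in wild-type controls and 0.0887, 0.0488 and 0.00853 in the controls labelled knockout, and it did not pass the genotype test.

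Markers of other spleen cells moved with the members in part, and their part in the members' differences was not tested. In CD4 cells of unstressed mice, 4 of 4 listed erythroid markers were higher in mice labelled knockout, where 2.23% of all genes were called higher. The summed erythroid level was 0.141, 0.0917 and 0.0891 in wild-type controls and 5.52, 4.06 and 0.627 in the controls labelled knockout, the same 2 mice being high as for the members. In stressed mice 1 to 3 labelled knockout it was 5.08, 1.74 and 1.70, and the 6 members there summed to 18.9, 20.5 and 27.1. In CD8a cells the erythroid sum was 2.81, 2.42 and 0.357 in the controls labelled knockout and 0.850, 0.0769 and 0.0342 in wild-type controls, where none of the 5 members listed passed the genotype test. S100a6 there was -0.50 ± 0.21.

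Of 11 listed monocyte, macrophage and dendritic markers in CD4 cells, 2 were higher in unstressed mice labelled knockout, Lyz2 (1.19 ± 0.22) and Cst3 (0.48 ± 0.11), named after their values were seen. Their summed level was 3.07, 3.33 and 3.44 in wild-type controls, 6.24, 4.90 and 4.13 in the controls labelled knockout, 4.73, 4.10 and 4.75 in stressed wild-type mice, and 5.04, 4.53 and 4.89 in stressed mice labelled knockout. Lyz2, which defines macrophages and neutrophils, was at most 0.368 in any CD4 average, and Itgax was listed at 0 in 4 mice. Of 5 neutrophil markers 0 passed, with sums from 0.0118 to 0.0304 in wild-type controls and from 0.0911 to 0.296 in the controls labelled knockout, and Ngp was listed at 0 in all 3 wild-type controls. Of 7 regulatory T cell markers 0 passed, with sums of 4.07, 3.76 and 4.59 in wild-type controls and 9.25, 5.63 and 5.43 in the controls labelled knockout. Natural killer markers (0 of 8) and B cell markers (0 of 8) did not pass either, and no platelet marker is listed.

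With stress, markers of natural killer cells and neutrophils were higher in part beside the members. Over all CD4 genes, 22.9% were called higher and 27.7% lower in wild type, and 12.7% and 29% in mice labelled knockout. Over all CD8a genes, 18.8% were called higher and 35.5% lower in wild type, and 13.2% and 34.4% in mice labelled knockout. Of the natural killer markers, which include cytotoxic genes that effector T cells also express, 4 of 8 in CD4 cells were past the threshold as higher in wild type and 2 of 8 in mice labelled knockout. Their sum was 3.05 to 4.94 in wild-type controls, 9.60 to 29.2 in stressed wild-type mice, 4.78 to 8.60 in the controls labelled knockout and 14.7 to 41.3 in stressed mice labelled knockout. In CD8a cells 2 of 5 and 3 of 5 were past it, with sums of 13.9 to 19.4, 25.3 to 31.3, 17.6 to 22.6 and 25.7 to 47.5 in the same order of groups. Most of the CD4 sum was Ccl5, with a mean of 2.51 of 4.04 in wild-type controls and 16.8 of 21.9 in stressed wild-type mice. All of the natural killer markers listed in CD4 cells but Tyrobp and Fcer1g, Ccl5 included, are also in the memory and effector list above. Of 5 neutrophil markers in CD4 cells 3 were higher with stress in wild type, S100a8 (0.74 ± 0.20), S100a9 (0.78 ± 0.12) and Chil3 (0.34 ± 0.12), and 2 in mice labelled knockout, Chil3 (0.35 ± 0.12) and Lcn2 (0.47 ± 0.16), all named after their values were seen. Their sum was 0.0118 to 0.0304 in wild-type controls and 0.140 to 0.356 in stressed wild-type mice, and 0.0911 to 0.296 and 0.268 to 0.505 in mice labelled knockout. In CD8a cells 2 of 5 were higher in each genotype, with sums of 0.00618 to 0.0474 and 0.0981 to 0.265 in wild type, and 0.0768 to 0.248 and 0.228 to 0.302 in mice labelled knockout. Of the 11 monocyte, macrophage and dendritic markers in CD4 cells, 3 were higher in wild type, Cst3 (0.48 ± 0.11), Bst2 (0.72 ± 0.24) and Cebpb (0.50 ± 0.15). In mice labelled knockout 3 were lower, Lyz2 (-0.61 ± 0.22), C1qc (-0.47 ± 0.18) and Cybb (-0.49 ± 0.17). Both counts were near the shares of all CD4 genes given above. In CD8a cells 1 of 6 was higher and 1 lower in wild type, and 2 were lower in mice labelled knockout. Erythroid markers passed in CD8a cells of mice labelled knockout, 2 of 5 as higher, where their sum was 16.03, 1.39 and 5.69 after stress. Of the 7 regulatory T cell markers in CD4 cells 2 were higher and 1 lower in wild type, and 3 were lower in mice labelled knockout. Of 8 B cell markers in CD4 cells, 1 was lower with stress in wild type, a smaller share than over all CD4 genes. In mice labelled knockout 8 of 8 were lower, and their sum was 7.65 to 11.6 in controls and 3.46 to 4.19 after stress. For none of these lists did a marker pass limma's test of the stress difference between the genotype labels. The part of these markers in the members' stress differences was not tested.

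**Figure D5:**
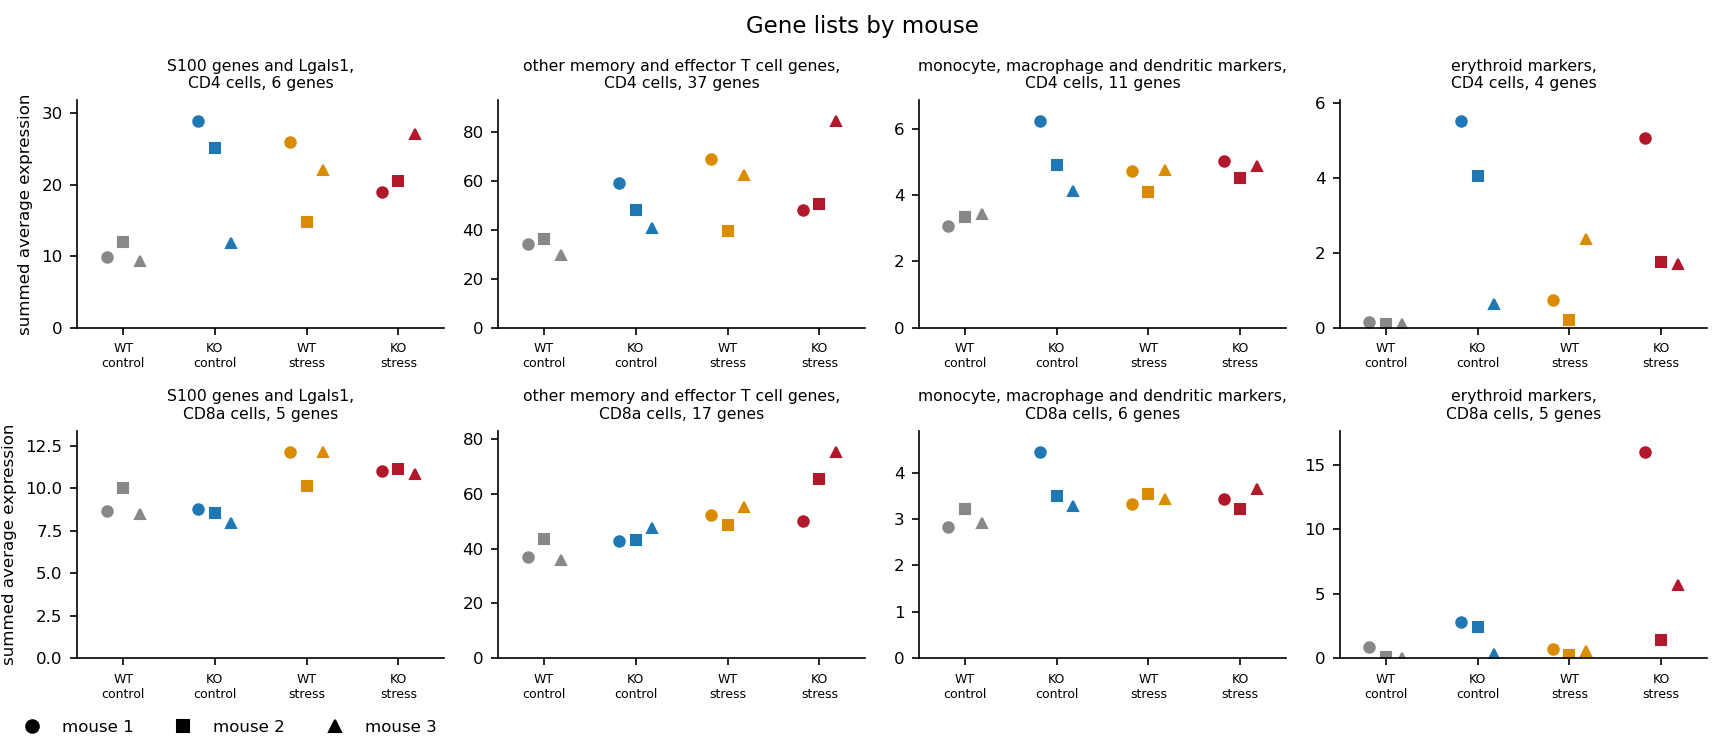
Summed average expression of the S100 genes with Lgals1 and of 3 other lists, with 1 point per mouse, in CD4 cells (top) and CD8a cells (bottom). In CD4 cells controls 1 and 2 labelled knockout are above control 3 in all 4 lists, and in CD8a cells the erythroid sums separate them (2.81 and 2.42 against 0.357) while the sums of the S100 genes with Lgals1 are 8.77, 8.53 and 7.98.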

How the data were processed

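Spleens of 12 mice were made into cell suspensions with erythrocytes lysed, and libraries were prepared with the 10x Genomics 3' v2 kit, per the labels' protocols. The submitters' processing notes name Cell Ranger 2.1.1 and mm10. Cell filters, doublet removal and the calling of CD4 and CD8a cells are not given in the sources used here. Each deposited value is a signal, the mean expression of a gene over the cells of 1 type in a mouse, per the file headers, with the listed genes of a mouse summing to under 10000. The authors deposited 8 tables, each with genes selected for 1 comparison by criteria not given in the sources used here. Across tables, values of a gene in a cell type were identical, so the tables were joined, to 2999 CD4 and 2851 CD8a genes. No column was left unused (0).

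Linear models of log2(value + 0.1) were fitted in R 4.3.3 (limma 3.58.1, mean-variance trend), 1 fit of 4 groups per cell type, and tests were two-sided. This scale understates the change of low genes. Adjustment covered genes the authors had selected on these mice. The fits were tested on simulated data. Depth is unknown, so no counting interval is given. The members, gene lists and tests were chosen with earlier results of these data known. Named genes are the members, the 5 genes most like each member, up to 4 genes of a list by level, and small counts named after their values were seen. Alternatives were pseudocounts of 0.01 and 1, leaving out the lowest 25% of genes, centring, removal of ribosomal and mitochondrial genes, no trend, sample quality weights, a replicate block, each comparison's own table, and leaving out each mouse. Mouse numbers were not used to pair the mice across groups, other than in the replicate block.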

Additional observations from a re-analysis of the deposited data

How the results depend on the processing

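Depth, number of cells and cell calling are unknown, 3 mice a group limit every test, and the genes were selected on these mice by the authors and again by name. The count of members called higher in CD4 cells of unstressed mice labelled knockout, 3 as reported, was 1 with a pseudocount of 1, with ribosomal and mitochondrial genes removed and with no mean-variance trend, and 5 with sample quality weights. Leaving out each mouse gave 0 to 5. For the CD8a minus CD4 difference, the count called lower in wild-type controls, 1 as reported, was 0 with a pseudocount of 1 and 0 to 1 on leaving out each mouse. In controls labelled knockout it ranged from 2 to 5 on leaving out each mouse. In stressed mice labelled knockout it was 2 with sample quality weights, 3 with the replicate block, and 2 to 5 on leaving out each mouse. For the genotype difference of unstressed mice between cell types it ranged from 0 to 3. The share of all genes called was not recorded for these alternatives. The cause of these changes was not tested.

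Genotype differences that changed sign were near 0 and none was called. In CD4 cells after stress, Lgals1 was -0.0073 with ribosomal and mitochondrial genes removed, and on leaving out each mouse Lgals1 ranged from -0.25 to 0.17, S100a6 from -0.13 to 0.52, S100a10 from -0.084 to 0.19 and S100a11 from -0.096 to 0.28. In CD8a cells S100a11 without stress ranged from -0.057 to 0.056. After stress in CD8a cells, S100a10 was -0.035 when centred on each mouse's median, -0.025 with ribosomal and mitochondrial genes removed and -0.063 to 0.095 on leaving out each mouse. S100a11 was 0.071 with sample quality weights and -0.073 to 0.080 on leaving out each mouse, and S100a13 ranged from -0.13 to 0.011. Among the genotype and cell type results of single genes, 864 alternatives kept the direction and the side of the threshold, 47 lost the call, 14 gained it and 19 changed sign. These include fits without a mouse of a group outside the comparison, where the difference cannot change. The 864 thus overstates how stable the results were.

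Deviations of same-numbered mice of different groups had r above 0.1 in 5 of 36 pairs (-0.24 to 0.24). Differently numbered mice were not compared in this way, so whether same-numbered mice share more than a number was not tested. With the replicate block S100a11 missed the threshold in CD4 cells of unstressed mice (0.88, limma, adjusted p = 0.0584) and 2 of 6 members were called there. Centring on each mouse's median moved the median CD8a stress difference over all genes from 0.02 to 0.22 for wild type and from 0.01 to 0.19 for mice labelled knockout, and S100a11 was then past the threshold in both (0.37 and 0.35). With sample quality weights the CD8a stress differences of S100a6 (0.40) and Lgals1 (0.24) in wild type were not past it.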
